A study of Mus musculus with 8 samples.

Results

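The genes described here are 41 fibroblast and interstitial matrix genes, chosen by name: fibrillar and associated collagens, small proteoglycans, elastic fibre and microfibril genes, matrix glycoproteins, the enzymes that process collagen, and surface markers of fibroblasts. Each was read from the probe set that carries its symbol alone and has the highest mean over the 8 arrays. A value was obtained for 39 of the 41 genes, out of 18194 genes in all, and 37 passed the filter on low values and were tested among 14598 genes. Fbn1 and Efemp2 had no probe set of their own in the annotation used, and Mfap2 and Islr were too dim to be tested. The arrays measured RNA of sorted mouse mammary epithelial cells in 4 groups of 2 biological replicates. Wildtype (WT) and C/EBPb knockout (KO) cells were each sorted on CD24, CD29 and lineage (LIN) markers into CD24+CD29hi cells (CD29hi below) and CD24hiCD29lo cells (CD29lo below). The knockout is germline, so every cell type of the KO gland lacks the gene, stromal cells included. Per the labels' protocols the glands came as 2 paired WT and KO sets, with 10 mice in a group; the mouse strain and age, and which mice lie behind which array, were not in the sources used.

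CD29 is the integrin beta-1 subunit, and in the mouse mammary gland a high CD29 level marks the basal, myoepithelial layer, while CD24hiCD29lo cells are luminal. Interstitial matrix is mainly the product of fibroblasts: fibrillar collagens are secreted as procollagens, trimmed, wound into fibrils whose width is set by small leucine-rich proteoglycans, and crosslinked by lysyl oxidases, next to elastic fibres built on microfibrils. Basal cells also secrete matrix of their own, so a matrix gene in a sorted epithelial fraction can come from basal cells or from stromal cells that passed the gate. In sorted bulk RNA, fewer cells of a type and less RNA per cell cannot be told apart.

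The sort and the knockout could be read in the arrays. Cebpb stood between 11.83 and 12.25 in the 4 WT arrays and between 8.6 and 9.38 in the 4 KO arrays (values are log2, as deposited). The mean of 19 basal genes lay between 10.12 and 10.55 in CD29hi and between 6.05 and 6.41 in CD29lo, and that of 16 luminal genes between 7.97 and 8.99 in CD29hi and between 10.91 and 11.21 in CD29lo. The epithelial surface gene Epcam lay between 12.44 and 12.85 in all 8 arrays. Background, set per array from control probe sets for bacterial genes, lay between 3.84 and 4.41 and was highest in KO CD29lo replicate 1. Gene lists of other cell types had lower means than the basal list in CD29hi and the luminal list in CD29lo. The mean of 16 endothelial genes ran from 5.42 to 6.87 in CD29hi and from 4.99 to 6.22 in CD29lo, and that of 13 blood cell genes from 3.46 to 4.26 and from 4.26 to 4.46. Adipocyte, pericyte, Schwann cell and muscle lists had means between 3.36 and 6.985. Single genes could be brighter: the adipocyte gene Fabp4 lay between 10.94 and 12.78 in all 8 arrays. Ptprc, the pan-leukocyte gene, ran from 0.37 to 4.21 in CD29hi and from 2.75 to 6.15 in CD29lo, Pecam1 from 5.61 to 7.40 and from 6.19 to 7.04, and the pericyte gene Rgs5 from 6.08 to 9.51 and from 5.91 to 7.79.

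In the 4 CD29lo arrays the matrix genes shared one order. Averaged over the 39 genes, KO replicate 1 stood at 6.23, WT replicate 1 at 7.83, KO replicate 2 at 9.15 and WT replicate 2 at 9.76. The replicates of a genotype therefore lay further apart than the genotypes did, and each KO array had a WT array above it. KO replicate 1 was the lowest CD29lo array for 38 of the 39 genes, against 31.8% of all genes tested, and WT replicate 2 was the highest for 32, against 34.2%. For 32 genes the whole order KO 1, WT 1, KO 2, WT 2, from low to high, held, against 5.42% of all genes tested. The same 32 had WT replicate 2 highest, KO replicate 1 lowest and at least 1 log2 unit between them, which 8.34% of all genes tested did with the middle arrays in any order. That gap had a median of 3.65 over the 39 genes and of 0.11 over all genes tested. Of the 7 genes without this order, 6 (Col15a1, Bgn, Mfap2, Mfap4, Eln and Pcolce) had KO replicate 2 as the highest CD29lo array, and Col12a1 alone had KO replicate 1 as the highest.

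**Figure D1:**
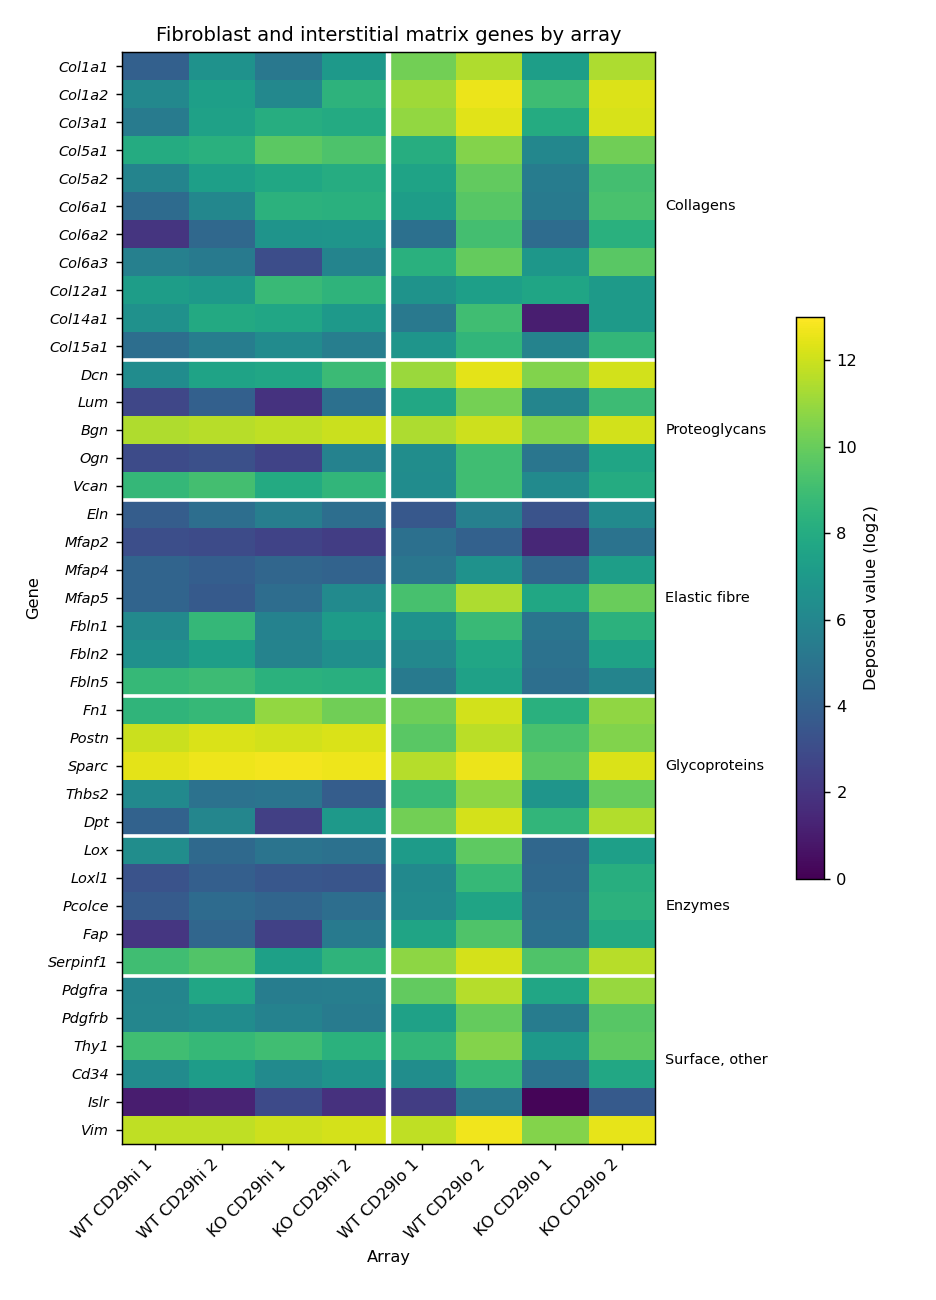
Deposited log2 value of each of the 39 genes (rows, grouped by role) in each of the 8 arrays (columns; colour scale from 0 to 13). Most rows are brightest in WT CD29lo 2 and KO CD29lo 2 and dim in KO CD29lo 1, while Postn, Sparc, Bgn and Vim are bright in all CD29hi arrays.

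A second set of 43 fibroblast genes that holds none of the 39 had the same order of means: 5.66 in KO replicate 1, 6.55 in WT replicate 1, 7.61 in KO replicate 2 and 8.11 in WT replicate 2. Gene by gene, 27 of the 43 had the full order, against 5.42% of all genes tested. Ltbp2 went the other way, at 5.13, 4.08, 7.87 and 5.84 (WT 1, WT 2, KO 1, KO 2). Epithelial genes did not share the order. The luminal mean was highest in KO replicate 1 (11.21), followed by KO replicate 2 (11.08), WT replicate 1 (10.99) and WT replicate 2 (10.91), and 0 of 16 luminal genes and 0 of 19 basal genes had the full order. Endothelial genes had the lowest mean in KO replicate 1 (4.99) and lay between 6.12 and 6.22 in the other CD29lo arrays, with 0 of 16 in the full order. Of 13 blood cell genes 1 had the full order, the leukocyte gene Laptm5. It read 6.01 and 8.18 (WT) and 4.02 and 6.93 (KO) in CD29lo. What set the CD29lo arrays apart in matrix genes was not tested.

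**Figure D2:**
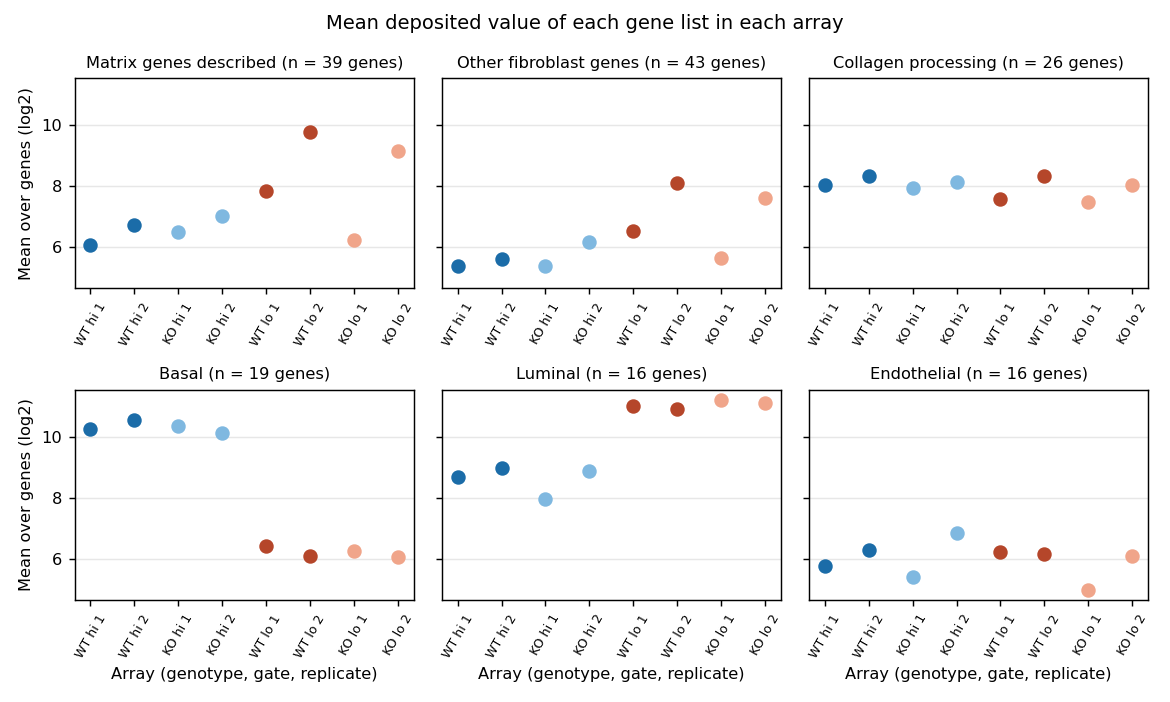
Mean deposited log2 value over the genes of 6 lists (panels) in each array (1 point per array; x labels give genotype, gate and replicate; blue CD29hi, red CD29lo, dark WT, pale KO). The matrix genes and the other fibroblast genes spread over the CD29lo arrays, while basal and luminal means split by gate.

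The type I and type III collagen chains had the same CD29lo order. Col1a2, the alpha-2 chain of type I collagen, read 11.17 and 12.60 (WT) and 8.95 and 12.31 (KO) in CD29lo, against 6.09 and 7.32 (WT) and 6.05 and 8.41 (KO) in CD29hi. Its partner chain Col1a1 read 10.25 and 11.44 (WT) and 7.29 and 11.41 (KO) in CD29lo, 4 and 6.63 (WT) and 5.19 and 7.04 (KO) in CD29hi. For both chains all CD29lo arrays lay above all CD29hi arrays, and so they did for 11 of the 39 genes, against 12.1% of all genes tested. Col3a1, the type III chain, read 10.87 and 12.42 (WT) and 8 and 12.22 (KO) in CD29lo, 5.4 and 7.45 (WT) and 8.09 and 7.97 (KO) in CD29hi, so that KO CD29lo replicate 1 overlapped the KO CD29hi arrays.

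Set against CD29lo, averaged over both genotypes, 15 of the 37 matrix genes tested fell in CD29hi (10.8% of all genes did) and 2 rose (12.2% of all genes did; limma, adjusted p under 0.05), or 17 in either direction against 22.9%. At an unadjusted p under 0.05, 19 were lower and 4 higher, against 35.6% of all genes in either direction. The median log2 difference of the 37 genes was -1.71, against 0.01 over all genes tested, and 28 of 37 were below 0, against 49.2%. Of 11 collagens 4 fell: Col1a1 by 4.38 ± 0.948 (SE; limma adjusted p = 0.0125), Col1a2 by 4.29 ± 0.797 (limma adjusted p = 0.00632), Col6a3 by 3.71 ± 0.781 (limma adjusted p = 0.0111) and Col3a1 by 3.65 ± 0.870 (limma adjusted p = 0.0186). Col6a3, a chain of the microfibrillar type VI collagen, read 8.23, 9.94, 6.87 and 9.69 in the CD29lo arrays (WT 1, WT 2, KO 1, KO 2) and between 3.08 and 5.86 in CD29hi. The other 7 collagens did not pass, and their CD29lo and CD29hi arrays overlapped.

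Among the proteoglycans Dcn, Lum and Ogn fell in CD29hi. Dcn encodes decorin, a small leucine-rich proteoglycan that binds collagen fibrils. It read 11.04 and 12.45 (WT) and 10.54 and 12.12 (KO) in CD29lo, against 6.32 and 7.53 (WT) and 7.67 and 8.87 (KO) in CD29hi. With a difference of -3.94 ± 0.489 it had the smallest adjusted p of the 37 genes (limma adjusted p = 0.000859), and its gap between WT CD29lo replicate 2 and KO CD29lo replicate 1 was only 1.91. Lum, which encodes lumican, read 7.82, 10.27, 5.91 and 8.93 in CD29lo (WT 1, WT 2, KO 1, KO 2) and between 1.88 and 4.80 in CD29hi, a difference of -4.88 ± 0.904 (limma adjusted p = 0.00627). Ogn (osteoglycin) was below the background in both WT CD29hi arrays and in KO CD29hi replicate 1 (2.63), and read 5.76 in KO CD29hi replicate 2. Its fitted difference was -3.40 ± 0.875 (limma adjusted p = 0.0256), a size that rests partly on values below the background.

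Further genes that fell belonged to several roles. Dpt encodes dermatopontin, which binds decorin and collagen. It had the largest difference: it read 10.22, 12.16, 8.55 and 11.51 in CD29lo (WT 1, WT 2, KO 1, KO 2) and 4.08, 5.95, 2.46 and 6.98 in CD29hi in the same sequence, a difference of -5.74 ± 1.06 (limma adjusted p = 0.00627). Mfap5, a microfibril component, read 9.23, 11.39, 7.74 and 10.04 in CD29lo and between 3.70 and 6.24 in CD29hi (-4.91 ± 0.651, limma adjusted p = 0.00121). Thbs2, a matricellular thrombospondin, read 8.82, 10.78, 6.77 and 9.99 in CD29lo and between 3.82 and 6.18 in CD29hi (-4.11 ± 0.750, limma adjusted p = 0.00577). None of these 3 genes overlapped between the gates.

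Elastic fibre genes had no common direction between the gates: of 6 tested, Mfap5 fell, Fbln5 rose (below) and 4 did not pass. Eln encodes elastin and read 3.59, 5.66, 3.35 and 6.22 in CD29lo (WT 1, WT 2, KO 1, KO 2) and between 3.81 and 5.58 in CD29hi. Its other probe set did not overlap between the gates. That probe set read 3.18, 2.41, 1.22 and 1.73 in CD29lo, below the background, and between 3.99 and 5.26 in CD29hi. Mfap4, another microfibril gene, read 5.10, 6.65, 4.28 and 7.27 in CD29lo and between 3.90 and 4.27 in CD29hi. Its gates did not overlap, but KO CD29lo replicate 1 (4.28) lay next to the highest CD29hi array (4.27) and below its own array's background of 4.41. Fbln1 read 6.62, 8.83, 5.07 and 8.35 in CD29lo and between 5.75 and 8.66 in CD29hi, and Fbln2 6.05, 7.68, 4.89 and 7.48 against 5.82 to 7.27.

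The gap between WT CD29lo replicate 2 and KO CD29lo replicate 1 differed between genes. Col14a1, a fibril-associated collagen, had the widest (7.89), with CD29lo values of 5.28, 9, 1.11 and 7.06 (WT 1, WT 2, KO 1, KO 2), and lay between 6.59 and 7.88 in CD29hi. Its KO CD29lo replicate 1 value was below that array's background of 4.41, so the size of its gap rests partly on a value below the background. Its other probe sets had gaps of 3.01 and 4.80. Lox and Islr followed, with KO CD29lo replicate 1 values also below that background, and then Fap and Col5a1. Islr, a secreted leucine-rich repeat protein, read 2.35, 5.27, 0.18 and 3.69 in CD29lo. Only its WT CD29lo replicate 2 value was above the background. In CD29hi it stayed below the background, between 1.02 and 2.91. Col5a1, a chain of the fibril-initiating type V collagen, read 8.12, 10.59, 6 and 10.19 in CD29lo and 8.02, 8.23, 9.73 and 9.36 in CD29hi. The smallest values of that gap belonged to Col12a1, Bgn, Dcn, Vim and Eln, although the highest CD29lo array of Eln and Bgn was KO replicate 2 and that of Col12a1 KO replicate 1. Of these, Bgn, Dcn and Vim also read high in every CD29lo array, at no less than 10.52, 10.54 and 10.61.

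Of the enzymes and secreted regulators 4 of 5 fell in CD29hi. Fap, the fibroblast activation protease, read 7.58, 9.44, 4.79 and 7.93 in CD29lo (WT 1, WT 2, KO 1, KO 2) and 2.04, 4.27, 2.49 and 5.36 in CD29hi (-3.90 ± 0.928, limma adjusted p = 0.0186), with KO CD29lo replicate 1 below KO CD29hi replicate 2. Serpinf1, which encodes the secreted factor PEDF, read 10.80, 12.15, 9.41 and 11.61 in CD29lo and 9.03, 9.48, 7.41 and 8.43 in CD29hi (-2.40 ± 0.503, limma adjusted p = 0.0108). Loxl1, a lysyl oxidase of elastic fibres, was not above the background in any CD29hi array and was at least 7.87-fold lower there (limma adjusted p = 0.0217). Pcolce, which speeds the trimming of procollagen, lay between 3.75 and 4.70 in CD29hi and at 6.27, 7.6, 4.67 and 8.35 in CD29lo (-2.41 ± 0.741, limma adjusted p = 0.049). Lox itself lay between 4.45 and 6.37 in CD29hi and at 7.15, 9.78, 4.32 and 7.35 in CD29lo and did not pass.

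Of the surface markers Pdgfra fell in CD29hi. It encodes the PDGF receptor that defines most fibroblasts, and read 9.90, 11.54, 7.70 and 11.00 in CD29lo (WT 1, WT 2, KO 1, KO 2) against 5.94, 7.67, 5.50 and 5.54 in CD29hi (-3.87 ± 0.728, limma adjusted p = 0.00668). Pdgfrb, the receptor of pericytes and fibroblasts, read 7.46, 9.92, 5.48 and 9.61 in CD29lo and between 5.42 and 6.34 in CD29hi and did not pass. Thy1 and Cd34, which other cell types also express, overlapped between the gates. Thy1 read 8.63, 10.57, 6.96 and 9.78 in CD29lo and 9.01, 8.71, 8.99 and 8.30 in CD29hi.

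Promoter letters are shown for a gene with the largest gate difference (Dpt), a defining fibroblast receptor (Pdgfra), a type I collagen chain (Col1a2) and the basal-gate gene Postn, because the knockout removes a factor that binds DNA. The stretches are RefSeq's for build GRCm38.p6, from 250 bases before to 50 bases after an annotated start, on the gene's strand. Capitals mark matches, on either strand, to a relaxed C/EBP motif (TTGCNNAA), the CCAAT box (CCAAT) and the TATA box (TATAAA).
Col1a2 (chr6:4505368-4505667, + strand): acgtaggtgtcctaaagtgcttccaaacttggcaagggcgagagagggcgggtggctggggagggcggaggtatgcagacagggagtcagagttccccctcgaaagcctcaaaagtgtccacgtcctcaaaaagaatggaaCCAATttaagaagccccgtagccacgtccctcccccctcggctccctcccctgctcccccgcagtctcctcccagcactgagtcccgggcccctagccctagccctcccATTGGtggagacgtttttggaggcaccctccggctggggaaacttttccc
Dpt (chr1:164796413-164796712, + strand): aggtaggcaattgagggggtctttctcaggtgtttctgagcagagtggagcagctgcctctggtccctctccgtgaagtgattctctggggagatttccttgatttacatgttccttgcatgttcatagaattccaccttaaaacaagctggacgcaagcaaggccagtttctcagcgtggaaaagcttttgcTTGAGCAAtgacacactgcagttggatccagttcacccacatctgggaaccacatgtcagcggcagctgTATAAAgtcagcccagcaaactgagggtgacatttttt
Pdgfra (chr5:75152001-75152300, + strand): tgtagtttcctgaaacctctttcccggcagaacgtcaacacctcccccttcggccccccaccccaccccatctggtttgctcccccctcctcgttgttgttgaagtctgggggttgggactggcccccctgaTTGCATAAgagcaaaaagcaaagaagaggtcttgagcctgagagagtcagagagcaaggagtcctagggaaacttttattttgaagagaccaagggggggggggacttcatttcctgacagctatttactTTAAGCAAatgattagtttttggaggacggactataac
Postn, upstream start (chr3:54359017-54359316, + strand): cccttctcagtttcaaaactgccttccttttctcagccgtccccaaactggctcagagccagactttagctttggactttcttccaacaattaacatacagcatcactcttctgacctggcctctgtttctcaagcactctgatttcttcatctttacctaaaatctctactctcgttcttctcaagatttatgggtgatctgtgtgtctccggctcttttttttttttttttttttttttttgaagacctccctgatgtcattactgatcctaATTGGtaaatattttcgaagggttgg
Postn, downstream start (chr3:54360857-54361156, + strand): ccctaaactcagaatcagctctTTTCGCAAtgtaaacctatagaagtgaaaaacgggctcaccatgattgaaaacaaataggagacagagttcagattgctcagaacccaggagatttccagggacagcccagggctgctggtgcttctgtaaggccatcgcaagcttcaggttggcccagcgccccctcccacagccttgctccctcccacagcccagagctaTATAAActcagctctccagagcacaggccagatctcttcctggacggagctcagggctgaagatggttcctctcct

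The C/EBP motif was found once in Dpt, in 2 places in Pdgfra and once in the downstream Postn start, and not in the Col1a2 window, which held 2 CCAAT matches. Of the 26 matrix genes with a listed promoter, 6 held the C/EBP motif (Col6a2, Postn, Mfap2, Pdgfra, Dpt and Islr), or 23.1%, against 12.2% of all 27025 genes with a promoter; 8 held CCAAT (30.8% against 41.1%) and 6 TATAAA (23.1% against 15.7%). Such a match is a run of letters and shows no binding.

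Of the 17 calls, 10 held whichever of the 8 arrays was left out: Col1a2, Col6a3, Dcn, Lum, Mfap5, Pdgfra, Serpinf1, Fbln5, Dpt and Thbs2. Without KO CD29hi replicate 1, Col1a1 (limma adjusted p = 0.0509), Col3a1 (0.0574), Fap (0.0649), Loxl1 (0.0641), Ogn (0.0775) and Pcolce (0.135) lost theirs, and 11 calls were left. Postn lost its call without WT CD29hi replicate 2 (limma adjusted p = 0.0544). Without WT CD29hi replicate 1, Col3a1 (limma adjusted p = 0.0715), Fap (0.0707), Loxl1 (0.0744), Ogn (0.0773) and Pcolce (0.139) lost theirs, and without WT CD29lo replicate 2 the same 5 did (0.0582, 0.0589, 0.0636, 0.0739 and 0.133). Leaving out KO CD29hi replicate 2 ended the calls of Col3a1 (limma adjusted p = 0.0514), Loxl1 (0.0579) and Pcolce (0.0926). WT CD29hi replicate 2 was needed for Loxl1 (limma adjusted p = 0.0547), Ogn (0.0692) and Pcolce (0.0907) too, WT CD29lo replicate 1 for Pcolce (0.0692), and KO CD29lo replicate 2 for Ogn (0.0647) and Pcolce (0.0531). Other settings also ended calls: a fit with no trend in the variance for Col3a1 (limma adjusted p = 0.0531), Loxl1 (0.0532), Ogn (0.0608) and Pcolce (0.0941), and values raised to at least 4 for Loxl1 (0.0521), Ogn (0.056) and Pcolce (0.07).

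Within one genotype fewer matrix genes passed. In WT, 9 of 37 fell in CD29hi (4.23% of all genes did) and 0 rose (3.96%): Col1a1, Col1a2, Col3a1, Dcn, Lum, Fap, Mfap5, Dpt and Thbs2 (limma), against 8.19% of all genes in either direction. At an unadjusted p under 0.05, 2 were higher (11.1% of all genes) and 20 lower (10.9%), against 22% in either direction, and 30 of 37 differences were below 0, against 49.8%. In KO, 5 fell (6.66% of all genes did), namely Dcn, Mfap5, Pdgfra, Serpinf1 and Thbs2, and 2 rose (7.41% of all genes did), namely Fbln5 and Postn, against 14.1% in either direction. At an unadjusted p under 0.05, 4 were higher and 11 lower, against 29.1% in either direction, and 21 of 37 differences were below 0, against 48.2%. These counts hung on single arrays, and the shares over all genes in the fits with an array left out are not given. The WT count of 9 became 2 when either WT CD29hi array or WT CD29lo replicate 1 was left out, 4 without WT CD29lo replicate 2, of which 2 rose, and 19 without either KO CD29lo array. In KO the count of 7 became 0 without KO CD29hi replicate 1, 2 without either WT CD29hi array, 3 without KO CD29hi replicate 2, and 15, all lower in CD29hi, without KO CD29lo replicate 1. Without KO CD29lo replicate 2 it was 7 again, but all 7 then rose in CD29hi. The median difference in KO was -0.92 with all arrays, -2.43 without KO CD29lo replicate 1 and 0.60 without KO CD29lo replicate 2.

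Another set of genes was high in the basal gate. Postn and Fbln5 were the 2 genes of the 39 with all 4 CD29hi arrays above all 4 CD29lo arrays, against 13.2% of all genes tested. Postn encodes periostin, a matricellular protein. It read 11.96 and 12.24 (WT) and 12.12 and 12.26 (KO) in CD29hi, and 9.69, 11.65, 9.27 and 10.56 in CD29lo (WT 1, WT 2, KO 1, KO 2). It rose in CD29hi by 1.85 ± 0.418 (limma adjusted p = 0.0148). Fbln5 encodes fibulin-5, which helps to assemble elastic fibres. It read 8.70 and 8.91 (WT) and 8.31 and 8.21 (KO) in CD29hi, and 5.36, 7.42, 4.73 and 5.85 in CD29lo, and rose in CD29hi by 2.69 ± 0.457 (limma adjusted p = 0.00413). Its second probe set was below the background in every array, and with the mean of both the call was lost (limma adjusted p = 0.0651). Both genes kept the CD29lo order of the other matrix genes, with WT replicate 2 highest, KO replicate 1 lowest and at least 1 log2 unit between them, a combination that 1.17% of all genes tested had, so each was high in CD29hi and also spread over the CD29lo arrays.

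**Figure D3:**
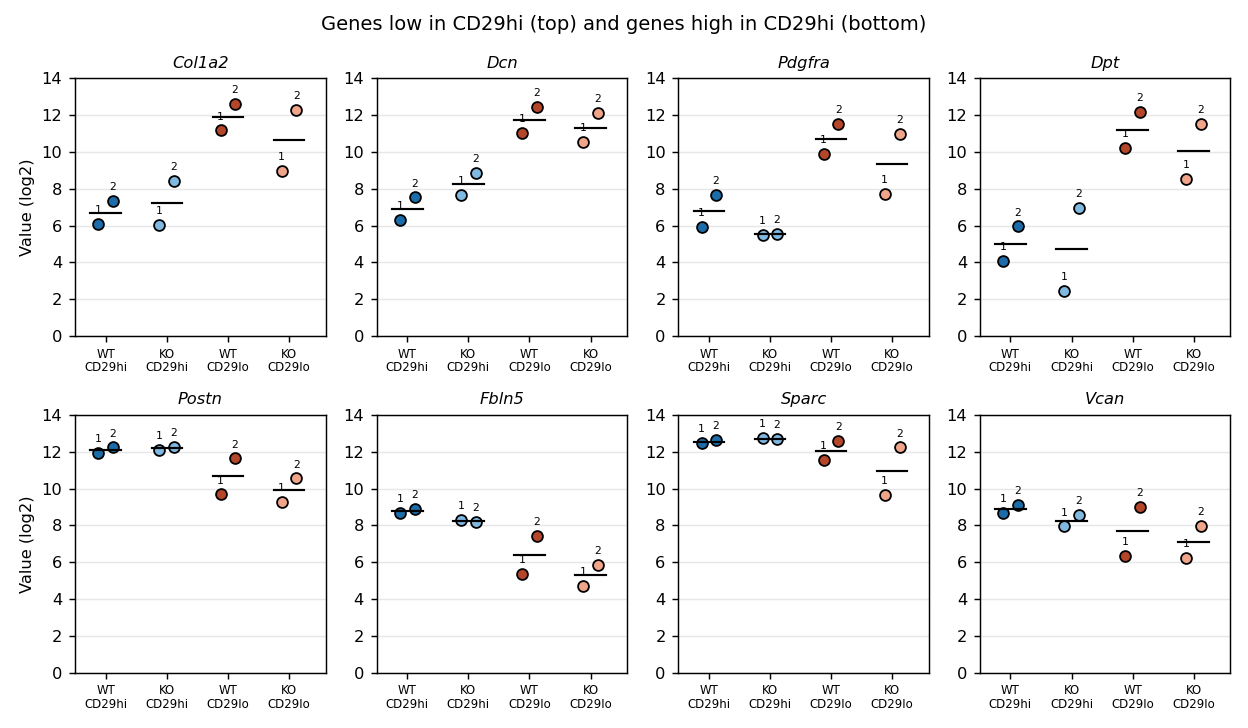
Deposited log2 value (y axis) of 8 genes in the 4 groups (x axis); points are arrays, small numbers their replicate, and bars the mean of 2 arrays. Col1a2, Dcn, Pdgfra and Dpt are low in CD29hi, Postn and Fbln5 lie above every CD29lo array in CD29hi, and in all 8 genes KO CD29lo replicate 1 is the lowest CD29lo array.

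Sparc, Vcan, Bgn and Vim were strong in CD29hi without passing. Sparc (osteonectin) read between 12.48 and 12.76 in the 4 CD29hi arrays and 11.55, 12.60, 9.65 and 12.24 in CD29lo (WT 1, WT 2, KO 1, KO 2), so that WT CD29lo replicate 2 overlapped CD29hi. Vcan, the large proteoglycan versican, read 8.68, 9.13, 7.95 and 8.57 in CD29hi and 6.33, 9.03, 6.22 and 7.98 in CD29lo. Bgn (biglycan), close kin of decorin, read between 11.44 and 11.97 in CD29hi and 11.40, 12, 10.52 and 12.11 in CD29lo. Vim, the mesenchymal intermediate filament, read between 11.74 and 12.15 in CD29hi and 11.77, 12.72, 10.61 and 12.51 in CD29lo. In each of these genes KO CD29lo replicate 1 lay below all 4 CD29hi arrays.

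A fit that held the mean of the 43 other fibroblast genes fixed gave other differences. With that mean as a covariate and 3 residual degrees of freedom, 10 genes were called higher in CD29hi than in CD29lo, averaged over genotypes (10% of all genes were): Postn, Fbln5, Sparc, Vcan, Bgn, Vim, Col14a1, Col5a1, Fbln2 and Cd34. Without the covariate the difference was 0.015 for Vim, -0.005 for Fbln2, -0.36 for Cd34 and 0.11 for Col5a1. The fitted difference with it was 2.96 ± 0.251 for Postn (limma adjusted p = 0.000334), 2.42 ± 0.307 for Sparc (limma adjusted p = 0.00164), 2.77 ± 0.373 for Vcan (limma adjusted p = 0.00215) and 4.96 ± 0.812 for Col14a1 (limma adjusted p = 0.0049). In the same fit 7 genes still fell (6.4% of all genes did): Dcn (-2.69 ± 0.335, limma adjusted p = 0.00152), Mfap5, Serpinf1, Col1a2, Lum, Pdgfra and Dpt. Within WT that fit gave 5 genes higher in CD29hi (4% of all genes were): Postn, Sparc, Fbln2, Fbln5 and Vcan. It gave 2 lower (2.08% of all genes were), Dcn and Mfap5. Without the covariate the WT counts were 0 and 9. Postn, Sparc, Fbln5 and Vcan were called higher within KO too, as were Col5a1, Col5a2, Col6a1, Col14a1, Bgn, Fn1 and Vim. Lower within KO were Col1a2, Col6a3, Dcn, Lum, Mfap5, Pdgfra, Serpinf1, Dpt and Thbs2. Of all genes, 9.77% were higher and 6.89% lower within KO in that fit. The covariate is read from the same arrays, and it removes by construction what the matrix genes share with the other fibroblast genes. It ran from 5.39 to 6.19 in CD29hi and from 5.66 to 8.11 in CD29lo. With it the median gate difference of the 37 genes went from -1.71 to 0.007. A gene called higher in this fit therefore need not read higher in CD29hi.

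**Figure D4:**
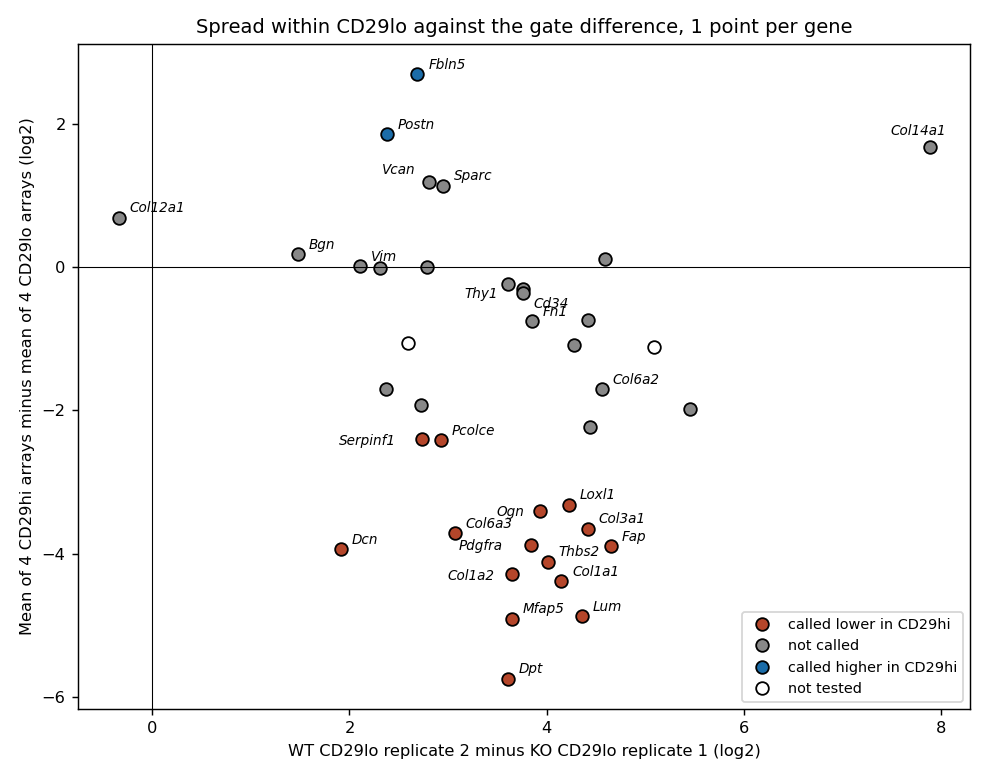
Each point is 1 of the 39 genes: the x axis gives WT CD29lo replicate 2 minus KO CD29lo replicate 1 and the y axis the mean of the 4 CD29hi arrays minus that of the 4 CD29lo arrays (both log2). Red genes fell and blue genes rose in CD29hi without the covariate (limma adjusted p under 0.05). All points but Col12a1 lie right of 0. Col14a1 is the farthest right at 7.89, with a KO CD29lo replicate 1 value below the background.

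Taken as unpaired groups, the KO and WT CD29lo arrays overlapped or interleaved for every one of the 39 genes. In 0 of 39 genes did both KO CD29lo arrays lie on one side of both WT CD29lo arrays, while 14.7% of all genes tested had both KO arrays above and 19.6% had both below. The fitted log2 difference of KO against WT was below 0 for 35 of 37 genes, against 56.1% of all genes, with a median of -1.15, but 0 of 37 passed (0.0137% of all genes did; limma) and only Lox had an unadjusted p under 0.05 (6.68% of all genes did). Lox, the collagen crosslinking enzyme, read 7.15 and 9.78 (WT) and 4.32 and 7.35 (KO) in CD29lo, a difference of -2.63 ± 1.14 (limma adjusted p = 0.746). The median over the 37 genes followed the arrays in the fit: it was 0.32 without KO replicate 1, -0.07 without WT replicate 2, -2.61 without KO replicate 2 and -2.13 without WT replicate 1. With KO replicate 1 and WT replicate 2 both left out, 37 of 37 differences were above 0, with a median of 1.25, since KO replicate 2 lay above WT replicate 1 in all 39 genes. Between arrays of the same replicate number WT was the higher: WT 1 lay above KO 1 in 38 of 39 genes, with a median gap of 1.67 (0.04 over all genes), and WT 2 above KO 2 in 33 of 39, with a median gap of 0.54 (0.08 over all genes). The labels name 2 paired sets of glands but do not say that the replicate number marks them, and with that number as a block 0 of 37 genes passed (limma).

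In CD29hi several collagens read higher in both knockout arrays than in both wildtype arrays, but no gene passed. Both KO CD29hi arrays were above both WT CD29hi arrays in 13 of the 37 genes tested, against 18.3% of all genes tested, and below them in 6, against 21.2%. Collagens made up 7 of these 13: Col3a1, Col5a1, Col5a2, Col6a1, Col6a2, Col12a1 and Col15a1. The 6 below were Pdgfra, Pdgfrb, Serpinf1, Fbln2, Fbln5 and Vcan. The other probe set of Col3a1 differed by only 0.16, with overlapping arrays. A dimmer probe set of Col5a1 overlapped too (5.61 and 3.89 in WT, 6 and 4.97 in KO), while another did not. Col15a1 read 5.50 in WT replicate 2 and 5.56 in KO replicate 2. None of the 37 genes passed (0.0137% of all genes did; limma), and 3 had an unadjusted p under 0.05 (7.84% of all genes did), all with KO above WT (3.12% of all genes were higher and 4.72% lower): Col12a1, Col6a1 and Fn1. The difference was below 0 for 15 of 37 genes, against 51.6%.

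Col12a1 encodes a collagen that decorates fibril surfaces. It read 7.25 and 6.98 (WT) and 8.79 and 8.48 (KO) in CD29hi, a difference of 1.52 ± 0.363 (limma adjusted p = 0.307), and 6.67, 7.32, 7.66 and 7.08 in CD29lo (WT 1, WT 2, KO 1, KO 2). All 4 of its probe sets had a KO mean above the WT mean in CD29hi, by 0.67 to 1.52. It was the only gene of the 39 in which KO CD29lo replicate 1 was not the lowest CD29lo array. Col6a1 and Col6a2, whose products join in type VI collagen, showed wider gaps with wider errors. Col6a1 read 4.53 and 6.02 (WT) and 8.33 and 8.24 (KO) in CD29hi (3.01 ± 1.22, limma adjusted p = 0.615). Col6a2 read 2.00 and 4.41 (WT) and 6.73 and 6.80 (KO) in CD29hi (3.56 ± 1.56, limma adjusted p = 0.639), and its other probe set differed by 2.56. The value of 2.00 was below the background, as were both WT CD29hi values of the other probe set (3.28 and 3.27). Both sizes therefore rest partly on values below the background. The remaining type VI chain listed, Col6a3, read 5.64 and 5.31 (WT) and 3.08 and 5.86 (KO) in CD29hi and did not share the gap.

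Fn1 encodes fibronectin, on which other matrix proteins assemble. It read 8.51 and 8.70 (WT) and 10.91 and 10.19 (KO) in CD29hi, a difference of 1.94 ± 0.839 (limma adjusted p = 0.632), but its dimmer probe set, above the background in 4 arrays, differed by only 0.09. In CD29lo Fn1 read 10.13, 12.10, 8.25 and 10.86. The mean of the 43 other fibroblast genes was 5.39 and 5.63 (WT) and 5.4 and 6.19 (KO) in CD29hi. Gene by gene, both KO CD29hi arrays lay above both WT CD29hi arrays in 14 of the 40 tested (18.3% of all genes tested). They lay below them in 2 (21.2%). With the mean of the 43 genes as a covariate the differences in CD29hi were 1.54 for Col12a1, 2.53 for Col6a1, 2.96 for Col6a2 and 1.63 for Fn1, and none passed. The cause of the higher KO values was not tested.

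**Figure D5:**
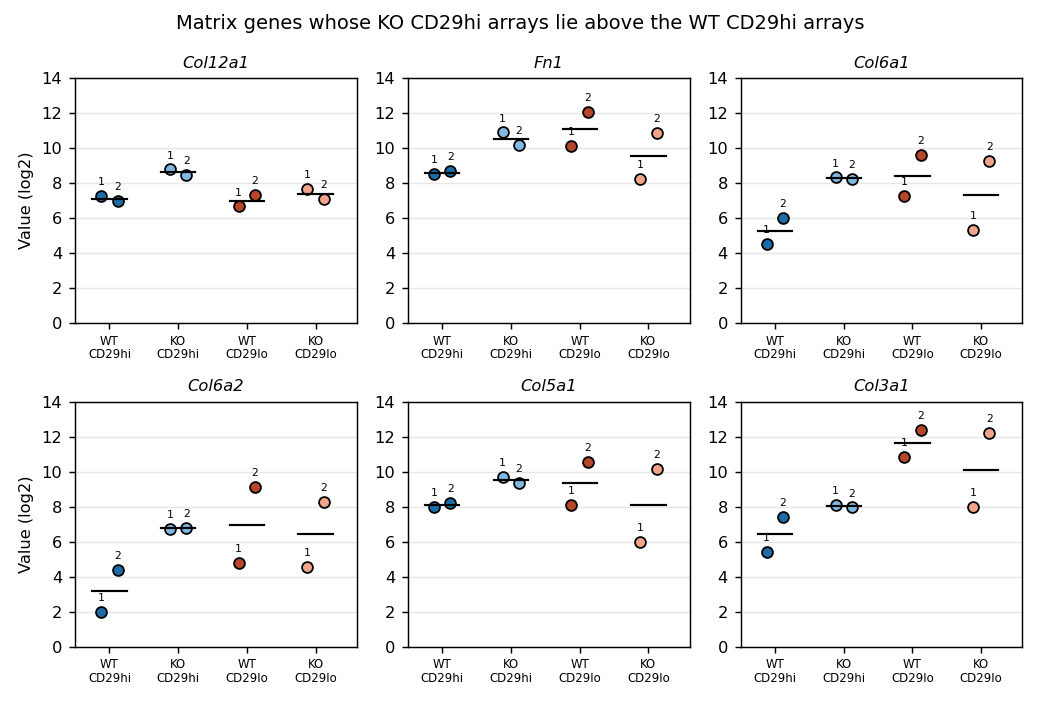
Deposited log2 value (y axis) of 6 genes in the 4 groups (x axis); points are arrays, small numbers their replicate, and bars the mean of 2 arrays. Both KO CD29hi arrays lie above both WT CD29hi arrays in each panel, while the WT and KO CD29lo arrays overlap.

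The genotype difference was then compared between the gates. The interaction, KO against WT in CD29hi minus the same in CD29lo, passed for 0 of 37 genes (0% of all genes; limma), with 2 at an unadjusted p under 0.05 (4.95% of all genes): Fn1 (3.51 ± 1.19, limma adjusted p = 0.961) and Col6a1 (4.14 ± 1.72, limma adjusted p = 0.961). It was below 0 for 4 of 37 genes, against 46.5% of all genes, with a median of 1.03, but the median was -0.01 without KO CD29lo replicate 1 and 2.58 without KO CD29lo replicate 2.

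Genes that process collagen inside and outside the cell were described in the same comparison. Of 25 such genes tested, 9 rose (12.2% of all genes did) and 2 fell (10.8%) in CD29hi, averaged over genotypes (limma), with a median of 0.57 against 0.01 over all genes tested; their difference from the matrix genes was not tested. Plod1, a lysyl hydroxylase, rose by 1.56 ± 0.271 (limma adjusted p = 0.00455), Colgalt2, a collagen galactosyltransferase, rose by 1.67 ± 0.323 (limma adjusted p = 0.00778), and Serpinh1, the collagen chaperone HSP47, rose by 0.58 ± 0.111 (limma adjusted p = 0.00727) from levels between 12.02 and 12.68 in CD29lo. Pcolce2, kin of Pcolce, fell by 5.50 ± 0.703 (limma adjusted p = 0.001). It read 9.08, 11.43, 10.69 and 10.71 in CD29lo (WT 1, WT 2, KO 1, KO 2), where KO replicate 1 was not the lowest. Averaged over the 26 processing genes with a value, the CD29lo arrays had the matrix order, from 7.48 (KO 1) to 8.33 (WT 2). KO replicate 1 was the lowest CD29lo array in 16 of the 25 tested, against 31.8% of all genes tested. The full order held in 7 of the 25, against 5.42%. Of the 40 other fibroblast genes tested, 14 fell (10.8% of all genes did) and 2 rose (12.2%) in CD29hi, with a median of -1.52 against 0.01. The stromelysin gene Mmp3 fell by 5.67 ± 0.628 (limma adjusted p = 0.000512) and Gas1 rose by 3.20 ± 0.392 (limma adjusted p = 0.000804), with all CD29hi arrays between 10.96 and 11.71 and CD29lo arrays between 7.43 and 8.96.

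Other probe sets of the same genes bore on how firmly each value can be read. The 39 genes had 85 probe sets, and 28 genes had more than 1. Of the 35 other probe sets above the background in at least 4 arrays, 34 had the same sign as the chosen one for WT CD29lo replicate 2 minus KO CD29lo replicate 1, and 26 had the same sign for CD29hi minus CD29lo.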

How the data were processed

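RNA of sorted cells was isolated and amplified before hybridisation to Affymetrix mouse arrays, per the labels' protocols. The authors deposited log2 values per probe set, from 0 to 14.42; the method of scaling is not given in the sources used here, and the values were used as deposited. The 8 arrays had medians between 5.45 and 5.67, and 64.74% to 71.16% of probe sets lay above background, the 95th percentile of 27 control probe sets. Only 2 arrays per group limit the precision, and p-values measure the spread between these arrays.

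Of 45101 probe sets, 34958 named 1 gene, 932 several and 9211 none in the platform annotation; only the first were used, with the brightest probe set per gene. Genes with a mean under the 25th percentile of probe-set means (3.51) were not tested. limma 3.58.1 (R 4.3.3) was fitted to 4 groups with a variance trend (4 residual and 4.306 prior degrees of freedom), two-sided, with Benjamini-Hochberg adjustment over 14598 genes; a call is an adjusted p under 0.05. It was tested on simulated data. For Loxl1, which did not rise above background in either CD29hi group, a bound replaced the fold. Figures were drawn with matplotlib 3.10.9 (Python 3.11.15).

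Genes called in any comparison, those with the 5 highest and 5 lowest values of WT CD29lo replicate 2 minus KO CD29lo replicate 1 and those higher in all CD29hi arrays were given in full. The genes and lists were chosen with earlier results of these data known. Correlations with list means over the 8 arrays were planned but are not given, because the arrays fall into 2 gates. Alternatives were other normalization, filters, floor, probe-set averaging, variance models, array weights, blocks, a fibroblast covariate and arrays left out.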

Additional observations from a re-analysis of the deposited data

How the results depend on the processing

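Averaged over genotypes, the count of 17 matrix genes called between the gates ran from 11 to 22 as single arrays were left out. In WT the count of 9 was 5 with values raised to at least 4, 2 with no variance trend, 16 with only the arrays compared, 7 with the fibroblast covariate (5 higher and 2 lower in CD29hi, against 0 and 9), and 2 to 19 as single arrays were left out. In KO the count of 7 was 2 with values raised to at least 4, 3 with the mean of probe sets, 1 with no variance trend, 3 with only the arrays compared, 19 with KO CD29lo replicate 1 and WT CD29lo replicate 2 left out, 20 with the fibroblast covariate (11 higher and 9 lower in CD29hi, against 2 and 5), and 0 to 15 as single arrays were left out. With the fibroblast covariate 4% of all genes were higher and 2.08% lower in WT, and 9.77% and 6.89% in KO. The replicate number as a block gave 17 calls in WT, 13 in KO and 19 averaged over genotypes. The numbers were not taken as a pairing, because the labels do not say that they mark the paired sets. Over all genes tested, same-numbered arrays correlated at 0.006 to 0.321 in their deviations from the group means. The highest value was that of WT CD29lo with KO CD29lo. These correlations cannot decide whether the numbers mark pairs. The genotype comparisons and the interaction gave 0 calls in every setting run. With KO CD29lo replicate 1 and WT CD29lo replicate 2 left out, Lox turned from lower to higher in KO CD29lo (log2 0.20, limma adjusted p = 0.978, range 0.291 to 1 over the alternatives). With the mean of probe sets, 1 gene instead of 2 lay higher in all CD29hi arrays. Apart from the covariate fit, shares over all genes are not given for these settings. A changed count of calls need therefore not be particular to the matrix genes. The cause of these changes was not tested. The fit on only the arrays compared was not run for the averaged comparison or the interaction.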

Other observations

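Among the 43 other fibroblast genes, 15 read higher in both KO CD29hi arrays than in both WT CD29hi arrays. Of the 40 tested, 14 did, against 18.3% of all genes tested, and none passed. Fmod, Ltbp2 and Cthrc1 were among them and were named after their values were seen. Fmod (fibromodulin, a collagen-binding proteoglycan) read 4.30 and 5.81 in WT CD29hi and 7.95 and 7.08 in KO CD29hi. Ltbp2, a latent TGF-beta binding protein, read 7.61 and 7.66 against 9.64 and 9.19. Cthrc1, a secreted collagen triple helix repeat protein, read 2.20 and 2.65 against 5.65 and 4.09. Both of its WT values were below the background, and its KO replicate 2 value was close to that array's background of 3.94.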
